A study of Mus musculus with 14 samples.

Results

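The genes described here are 7 genes of antigen presentation by MHC class II, chosen by name and matched on the gene symbols of the count table: Cd74, H2-Aa, H2-Ab1, H2-Eb1, H2-DMa, H2-DMb1 and Ciita. They are 7 of the 55335 genes in the table, and all 7 were among the 21509 genes that passed the filter on low counts. RNA was sequenced from bone marrow cells of Cdh5 Cre Rosa26 TdTomato mice, in which Cre expressed from the endothelial Cdh5 promoter switches on a red fluorescent protein. The cells had been sorted as negative for lineage markers and CD45 and positive for TdTomato. All 14 libraries carry that genotype and sort. They form 4 groups: untreated mice (n = 4), total body irradiation with 500 cGy from a cesium source (TBI, n = 5, replicates 1, 3, 4, 5 and 6), radioimmunotherapy (RIT) with 20 µCi on a non-targeting IgG (IgG RIT, n = 3), and RIT with 20 µCi on an antibody to CD45 (CD45 RIT, n = 2). Treated mice were harvested 8 days after treatment. Age, sex, strain background and whether a library pools several mice are not given in the sources used here, so the p-values measure the spread between these libraries, which may be partly technical.

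MHC class II molecules are heterodimers of an alpha and a beta chain that display peptides from endocytosed proteins to CD4 T cells. The new chains assemble in the endoplasmic reticulum on the invariant chain, the product of Cd74, and in endosomes H2-DM removes the remnant of that chain so that peptide can bind. The genes are transcribed mainly in B cells, dendritic cells and macrophages and, after exposure to interferon-gamma, in other cells including endothelium. Transcription depends on the coactivator CIITA, which is recruited by the RFX, CREB and NF-Y factors bound to the X and Y boxes of class II promoters.

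The X and Y boxes are what the class II promoters share, so stretches that hold their letters are printed for 6 genes with an entry in the RefSeq promoter table (GRCm38.p6, 250 bases before to 50 after a start). Of the 7 genes, 4 had a window there (H2-Aa, H2-Eb1, H2-DMa and H2-DMb1). The X core was searched as GCAAC, the X2 core as TGATGC or TGACGT, and the Y core as GATTGG, each on both strands. The capitals mark 1 array of these cores on the strand of the gene. An X core followed by a Y core 15 to 35 bases later, on either strand, was present in 0.365% of the 32851 windows of 300 bases in the table. On either strand, 35.2% of the windows held the X core alone, 17.8% an X2 core and 16.1% the Y core. On the strand of the gene, the pair was found in 5 of the 9 searched windows of class II genes and in 0.198% of all windows. The 5 were those of H2-Aa and H2-Eb1, which are among the 7 genes, and of H2-Oa, H2-Ob and H2-Eb2, which are not. The H2-Eb2 window is not printed. Sequences are given 5′ to 3′ on the strand of the gene.
H2-Aa, minus strand, chr17:34287843-34287942: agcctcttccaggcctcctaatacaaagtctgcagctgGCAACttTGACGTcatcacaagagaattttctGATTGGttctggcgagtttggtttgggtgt
H2-Eb1, plus strand, chr17:34305737-34305836: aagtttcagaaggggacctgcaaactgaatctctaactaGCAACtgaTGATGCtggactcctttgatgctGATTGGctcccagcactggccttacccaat
H2-Ob, plus strand, chr17:34238777-34238876: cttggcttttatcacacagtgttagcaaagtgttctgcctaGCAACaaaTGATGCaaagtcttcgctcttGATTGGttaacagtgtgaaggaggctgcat
H2-Oa, plus strand, chr17:34092265-34092340: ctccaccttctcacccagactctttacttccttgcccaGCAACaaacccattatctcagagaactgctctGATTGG
H2-DMb1, plus strand, chr17:34153105-34153134: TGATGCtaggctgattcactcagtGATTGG
H2-DMb2, plus strand, chr17:34145134-34145163: TGATGCtaggctaagtcacttagtGATTGG
Left in lower case are an opposite-strand X2 core that overlaps the marked one in H2-Aa (bases 48 to 53 of the line) and a second X2 core in H2-Eb1 (bases 64 to 69). In the 4 printed stretches with the pair, the X and Y cores were 24 to 27 bases apart. H2-DMb1 and its neighbouring copy H2-DMb2 held the X2 and Y cores without these letters of X, and the 30 bases from X2 to Y were identical at 27 positions. Neither window of H2-DMa held the pair. Both windows of H2-DMa and the printed stretches of H2-DMb1 and H2-DMb2 lie inside the genes as annotated in the count table, whose starts differ from the RefSeq starts. A match is a description of the letters and not a measured binding site.

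**Figure D1:**
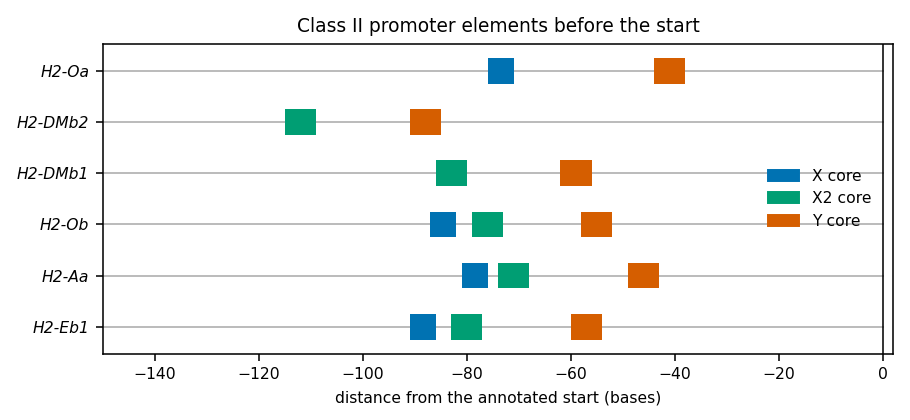
Positions of the X (blue), X2 (green) and Y (orange) cores before the RefSeq start of 6 class II genes, on an axis of bases. The Y core starts between 44 and 91 bases before the start, and in the 4 genes with an X core that core lies upstream of it. In H2-DMb1 and H2-DMb2 these positions lie inside the genes as annotated in the count table.

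Depth was lowest in TBI replicate 6, with 16412779 counts in all, and highest in untreated replicate 1, with 31077588. CD45 RIT replicates 1 and 2 had the fewest genes with a count, 20994 and 17700, against 23409 to 25399 in untreated libraries. The part of this in values at 0 counts was not tested. A floor of 3 counts corresponded to 0.0786 to 0.215 CPM, the count relative to the library size after TMM scaling. The libraries do not all resemble their group: log2 CPM of the CD45 RIT pair correlated across genes at 0.673, whereas replicates in the other groups correlated at 0.906 to 0.979. TBI replicate 6 correlated at 0.911 to 0.923 with the other TBI libraries and at 0.929 to 0.932 with the IgG RIT libraries. The labelled cell type was checked against its markers. Cdh5 itself had 0 to 6 counts in every library, and the endothelial marker Pecam1 had 894 to 1957 counts in untreated, 44 to 820 in TBI, 72 to 171 in IgG RIT and 6 and 4 in CD45 RIT replicates 1 and 2. Of 10 endothelial markers tested, 4 were lower after CD45 RIT, Pecam1 among them, and 2 were higher by edgeR, Kdr and Flt4, whose counts were 1 and 2390 and 0 and 1306 in CD45 RIT replicates 1 and 2. Over all genes 18.6% were called lower than untreated after CD45 RIT and 14.5% higher. Ptprc, the gene of CD45, against which the cells were sorted, had 1578 to 3273 counts in untreated libraries and 1 and 662 in the CD45 RIT pair. Library numbers in the labels are 11 to 16 for the RIT libraries, 10 for TBI replicate 6 and at most 9 for the others. Whether they mark a batch is not given, and number and RIT treatment cannot be told apart.

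Per length, 4 of the 7 genes formed an upper group in untreated cells. H2-DMa averaged 26.6 ± 5.90 CPM per kilobase of exon (SD, n = 4), Cd74 19.9 ± 15.0, H2-Ab1 19.1 ± 5.85 and H2-DMb1 15.9 ± 1.83. Neighbours among these 4 overlapped when their SDs are taken into account. A wide step separated them from H2-Eb1, at 2.05 ± 1.03, and H2-Aa, at 1.54 ± 0.237. Ciita was lowest, at 0.0822 ± 0.0981.

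H2-DMa was the class II gene with the firmest difference between groups. It encodes the alpha chain of H2-DM, the peptide exchange factor, and lies on chromosome 17 from 34119541 to 34139101 (GRCm38, ENSMUSG00000037649.10). Its level was 107, 112, 74.1 and 74.2 CPM in untreated replicates 1 to 4. It was 7.65, 9.51, 9.73, 13.9 and 3.23 CPM in TBI replicates 1, 3, 4, 5 and 6. IgG RIT replicates 1 to 3 had 5.44, 3.34 and 5.78 CPM, and CD45 RIT replicates 1 and 2 had 1.65 and 5.15 CPM. Every treated library lay below every untreated library, and the 3 treated groups overlapped one another. Against untreated, H2-DMa fell 10.4-fold after TBI (log2 fold change -3.38 ± 0.44 SE, adjusted p = 0.00187 by edgeR's quasi-likelihood test with Benjamini-Hochberg adjustment). It fell 18.9-fold after IgG RIT (-4.24 ± 0.56, adjusted p = 0.00184 by edgeR) and 26.9-fold after CD45 RIT (-4.75 ± 0.70, adjusted p = 3.84e-04 by edgeR). The differences between treatments did not pass: the adjusted p by edgeR was 0.506 for CD45 RIT against IgG RIT and 0.0709 for CD45 RIT against TBI. Both depended on the libraries: without CD45 RIT replicate 2 H2-DMa was lower after CD45 RIT than after IgG RIT (edgeR adjusted p = 0.0476) and than after TBI (0.00936), and it was lower than after TBI without TBI replicate 6 (0.0228) and without scaling (0.0291). The H2-DMa annotation shares 360 of its 3448 exon bases (10.4%) with Brd2 on the opposite strand, and whether the counting used strand is not given. Brd2 itself differed from untreated by -0.01, -0.28 and 0.01 on the log2 scale after TBI, IgG RIT and CD45 RIT (edgeR adjusted p = 0.99, 0.465 and 0.985).

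H2-DMb1, the beta chain gene of H2-DM (chromosome 17, 34153072 to 34160230), was as sharply separated after TBI but did not pass the test across genes. Untreated replicates had 959, 1036, 718 and 765 counts (26.7 ± 3.08 CPM, SD, n = 4), and TBI replicates had 38, 54, 57, 68 and 22 counts (1.96 ± 0.554 CPM, n = 5). IgG RIT replicates had 0, 32 and 29 counts. The CD45 RIT libraries were opposite, with 361 counts (22.0 CPM) in replicate 1 and 0 in replicate 2. All TBI, IgG RIT and CD45 RIT libraries lay below the lowest untreated library in CPM. The log2 fold change was -3.76 ± 1.20 after TBI (edgeR adjusted p = 0.103), -4.67 ± 1.55 after IgG RIT (0.059) and -1.28 ± 1.52 after CD45 RIT (0.527). Without CD45 RIT replicate 1 the last value became -12.40, a fitted value against a library at 0 counts (edgeR adjusted p = 0.0012), and without replicate 2 it was -0.31. In a fit of only the untreated and TBI libraries the TBI value was -3.65 (edgeR adjusted p = 1.03e-04), and DESeq2 gave -3.64 (adjusted p = 0.014). Reads of H2-DMb1 and its near-identical neighbour H2-DMb2 may have been split between them by the counting. With both summed, the IgG RIT value was -4.84 (edgeR adjusted p = 0.0422). It also passed in a fit of only those 2 groups (0.00705), without scaling (0.0337) and by DESeq2 (0.00323).

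Cd74 encodes the invariant chain, which also serves as a receptor for the cytokine MIF. It is annotated on chromosome 18. Its level was 25.6, 21.6, 70.6 and 15.6 CPM in untreated replicates, and untreated replicate 3 stood above the other untreated libraries. TBI replicates had 15.5, 8.27, 5.53, 17.7 and 2.44 CPM, IgG RIT replicates 9.21, 3.59 and 14.3 CPM, and CD45 RIT replicates 6.65 and 0.0481 CPM, the last being 1 count. TBI libraries overlapped the untreated range, and the IgG RIT and CD45 RIT libraries lay below it. The log2 fold changes were -1.75 ± 0.91 after TBI, -1.89 ± 1.10 after IgG RIT and -3.32 ± 1.40 after CD45 RIT, and none passed (edgeR adjusted p = 0.346, 0.252 and 0.0857). Without CD45 RIT replicate 1 the value was -9.31 (edgeR adjusted p = 0.002), and without replicate 2 it was -2.37 (0.144).

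H2-Aa encodes the alpha chain of the I-A molecule (chromosome 17, 34282744 to 34287823, minus strand). Its levels were even among untreated replicates, at 6.10, 5.54, 6.98 and 4.85 CPM. TBI replicates had 3.08, 1.83, 1.19, 2.41 and 0.933 CPM, all below the untreated range, with a log2 fold change of -1.63 ± 0.95 (edgeR adjusted p = 0.417, and 0.021 in a fit of only these 2 groups). IgG RIT replicates had 1, 0 and 43 counts (2.26 CPM in replicate 3), also below untreated, at -2.91 ± 1.21 (edgeR adjusted p = 0.117). Without IgG RIT replicate 3 that value was -7.50 (edgeR adjusted p = 0.00577). The CD45 RIT pair had 0 and 1 counts. H2-Aa thus fell after CD45 RIT, to 0.457% of the untreated level (1 count in the group, 95% counting interval 0.0116% to 2.55%, edgeR adjusted p = 0.0127). It was also lower after CD45 RIT than after TBI, at 1.31% (0.0331% to 7.38%, edgeR adjusted p = 0.026), a difference that did not pass without CD45 RIT replicate 1 or 2 (adjusted p up to 0.0793). PCR copies were not told apart in these libraries, so such intervals and floors cover counting error only.

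H2-Ab1, the beta chain gene of I-A (chromosome 17, 34257689 to 34269419), differed less. Untreated replicates had 48.4, 55.9, 63.4 and 28.4 CPM. TBI replicates had 50.4, 31.1, 28.0, 46.1 and 19.2 CPM, with 2 of 5 under the untreated range, at a log2 fold change of -0.49 ± 0.42 (edgeR adjusted p = 0.629). IgG RIT replicates had 10.5, 7.72 and 19.1 CPM, all below untreated. H2-Ab1 fell 3.94-fold after IgG RIT (-1.98 ± 0.51, edgeR adjusted p = 0.0224). The call was lost without untreated replicate 3 (edgeR adjusted p = 0.0503), IgG RIT replicate 1 (0.0833) or IgG RIT replicate 2 (0.0872). CD45 RIT replicates had 10.2 and 32.4 CPM, on either side of the lowest untreated library, at -1.20 ± 0.57 (edgeR adjusted p = 0.121), and at -2.30 without replicate 2 (0.0187).

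H2-Eb1, the beta chain gene of the I-E molecule (chromosome 17, 34305867 to 34316674), overlapped between all groups. Untreated replicates had 2.36, 5.66, 5.81 and 2.15 CPM and TBI replicates 2.51, 2.25, 0.859, 1.69 and 0.215 CPM. IgG RIT replicates had 1.16, 0.149 and 4.73 CPM and the CD45 RIT pair 0.244 and 21.5 CPM. CD45 RIT replicate 2, which had 1 count of Cd74 and 1 of H2-Aa, held the highest H2-Eb1 level of all 14 libraries. The log2 fold changes were -1.39 ± 1.06, -0.99 ± 1.23 and 1.45 ± 1.31 after TBI, IgG RIT and CD45 RIT (edgeR adjusted p = 0.567, 0.62 and 0.399). The last was -4.03 without CD45 RIT replicate 2.

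The beta to alpha chain ratio of I-A differed between untreated and TBI libraries. This ratio and 2 others were picked after the values had been seen and are given as a description, with no test. Per length, H2-Ab1 was 11.7, 14.9, 13.4 and 8.66 times H2-Aa in untreated replicates and 24.2, 25.1, 34.7, 28.3 and 30.5 times in TBI replicates. The ranges did not overlap, the log2 ratio being 1.24 higher on average after TBI. The Cd74 to H2-Ab1 ratio was 0.592 to 1.71 in untreated and 0.194 to 0.586 in TBI libraries, a log2 difference of -1.31 on average. The H2-DMa to H2-DMb1 ratio was 1.36 to 2.07 in untreated and 0.997 to 2.95 in TBI libraries, which overlap.

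Ciita, the coactivator gene (chromosome 16, 10480059 to 10528418), varied between detection and none within the groups, with 6 of 14 libraries at or under 3 counts. It had 1, 0, 36 and 55 counts in untreated replicates 1 to 4, 7, 14, 6, 27 and 0 in TBI replicates and 53, 0 and 43 in IgG RIT replicates. Both CD45 RIT libraries had 0 counts. No group stood apart from untreated, since untreated replicate 2 also had 0. The log2 fold changes were -0.98 ± 1.48 after TBI and 1.18 ± 1.66 after IgG RIT (edgeR adjusted p = 0.83 and 0.665). Against the floor of 3 counts per library, Ciita was at least 4.79-fold lower in CD45 RIT than in untreated libraries on average (edgeR adjusted p = 0.123). Libraries with 0 or 1 counts of Ciita had up to 112 CPM of H2-DMa. Ciita shares 329 exon bases (3.45%) with Dexi on the opposite strand.

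**Figure D2:**
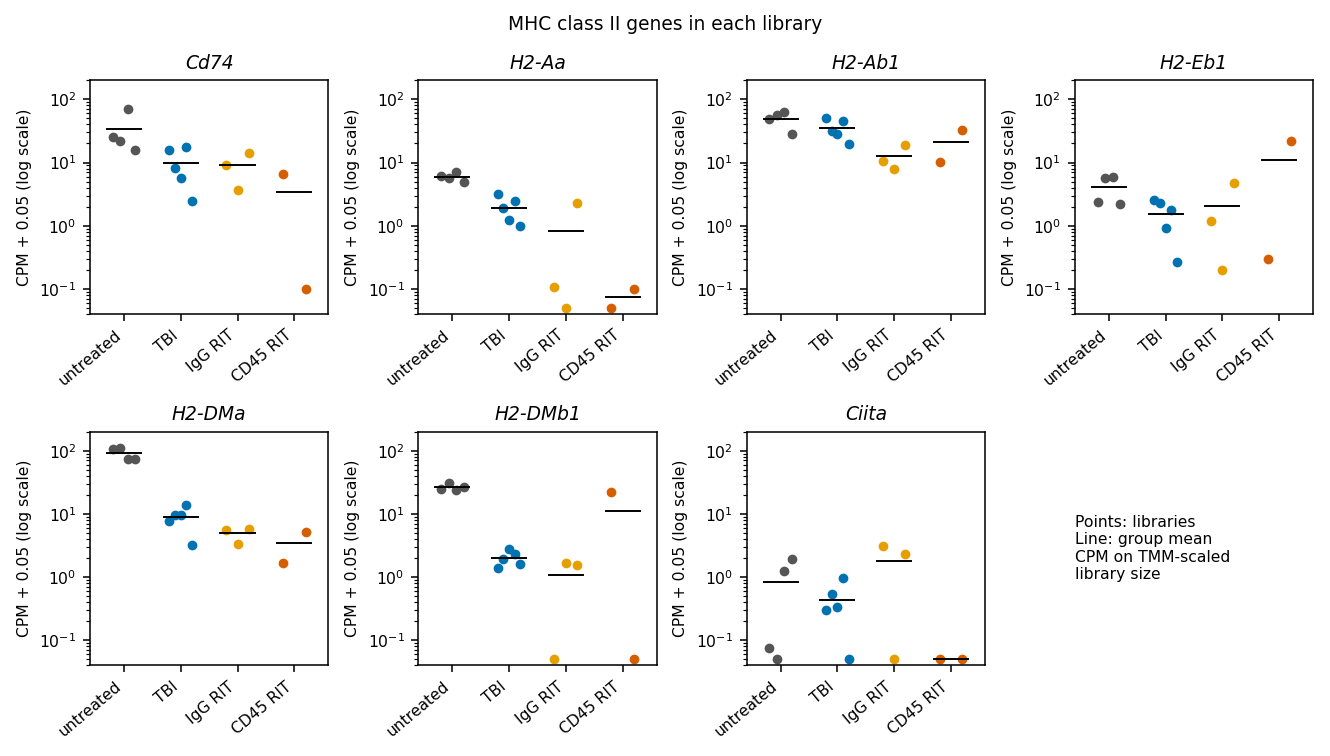
Level of the 7 class II genes in each of the 14 libraries, in CPM plus 0.05 on a log axis; points are libraries and lines are group means. H2-DMa and H2-DMb1 separate untreated from TBI and IgG RIT libraries, while H2-Eb1 and Ciita overlap, and the CD45 RIT pair is far apart for H2-Eb1, H2-DMb1 and Cd74.

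Counted together, most class II genes had negative fold changes against untreated, the exceptions being Ciita after IgG RIT (1.18) and H2-Eb1 after CD45 RIT (1.45), and few passed the test. After TBI 1 of 7 was called lower (H2-DMa), where 4.31% of all tested genes were called and 3.38% were called lower. All 7 fold changes were negative, where 59.5% of all genes had one below 0, with a median of -1.63 on the log2 scale against -0.16 over all tested genes, and the libraries of 3 did not overlap, where 12.8% of all genes did so in that direction. After IgG RIT 2 of 7 were called lower (H2-DMa and H2-Ab1), where 16.4% of genes were called and 10.7% called lower. The median was -1.98 against -0.42 over all genes, 6 of 7 were negative (63.3% of all genes), and 5 did not overlap (27.4% of all genes). After CD45 RIT 2 of 7 were called lower (H2-DMa and H2-Aa), where 33.1% of genes were called and 18.6% called lower. The median was -3.32, or -2.26 with Ciita set at its bound, against -0.37 over all genes, 6 of 7 were negative (56.8% of all genes), and 4 did not overlap (29.8% of all genes). With 2 of 7 called against these backgrounds, the counts after IgG RIT and CD45 RIT are too small to set the genes apart from the rest of the table.

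Between treatments few class II differences were called. CD45 RIT against IgG RIT gave 0 of 7 by edgeR, with 2 at an unadjusted p under 0.05 and 2 by DESeq2, where 37.7% of all genes were called. Without CD45 RIT replicate 1, 3 of 7 passed. CD45 RIT against TBI gave 1 of 7 (H2-Aa), where 38.6% of all genes were called, and 3 without CD45 RIT replicate 1 or 2. IgG RIT against TBI gave 0 of 7 by edgeR, with 1 at an unadjusted p under 0.05 and 1 by DESeq2 (H2-Ab1), where 0.242% of all genes were called. The comparisons share their untreated or treated libraries and are not independent of one another.

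**Figure D3:**
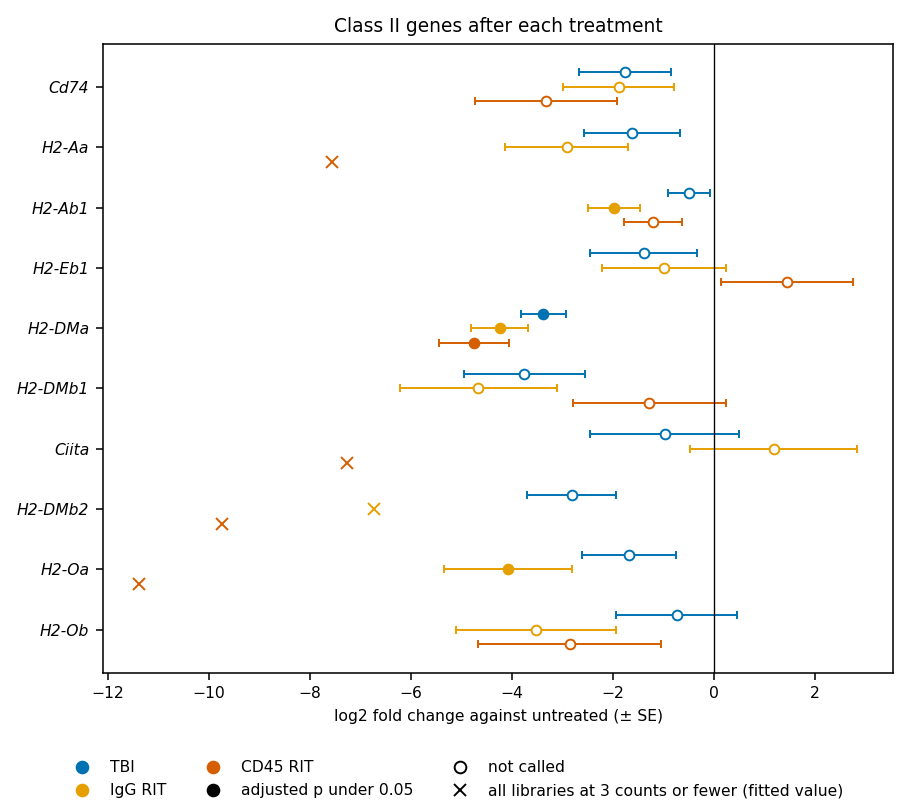
Log2 fold change against untreated for 10 class II genes after TBI (blue), IgG RIT (yellow) and CD45 RIT (orange), with bars of ± 1 SE; filled circles passed an adjusted p of 0.05. Crosses are fitted values of groups whose libraries all had 3 counts or fewer and carry no bar. H2-DMa is filled for all 3 treatments, from -3.38 to -4.75.

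The other genes of the class II region were fixed as a list of 5, of which 3 had enough counts to test. H2-Oa and H2-Ob encode H2-O, the inhibitor of H2-DM that is made mainly in B cells. H2-Oa had 351, 427, 605 and 352 counts in untreated replicates, 99, 163, 92, 191 and 14 in TBI replicates, 39, 0 and 3 in IgG RIT replicates and 0 in both CD45 RIT libraries. All treated libraries lay below untreated. H2-Oa fell 16.9-fold after IgG RIT (log2 fold change -4.08 ± 1.26, edgeR adjusted p = 0.048) and at least 83.1-fold after CD45 RIT (edgeR adjusted p = 0.0052), and was at -1.69 ± 0.93 after TBI (0.384). The IgG RIT call was kept in 1 of the 7 fits that left out a library and was not called with RLE factors (adjusted p = 0.0571). The value was -7.36 without IgG RIT replicate 1 and -3.49 without replicate 2. H2-Oa shares 321 exon bases (22.8%) with a gene on the opposite strand. H2-Ob had 789 to 1442 counts in untreated, 11 to 994 in TBI and 1, 56 and 111 in IgG RIT libraries, and 152 and 0 in the CD45 RIT pair. It was not called in any comparison with untreated (edgeR adjusted p = 0.843, 0.142 and 0.231).

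H2-DMb2, the second beta chain gene of H2-DM, had 122, 49, 291 and 87 counts in untreated replicates, 24, 17, 11, 31 and 0 in TBI replicates, 1, 1 and 0 in IgG RIT replicates and 0 in both CD45 RIT libraries. It fell after IgG RIT to 0.843% of the untreated level (2 counts in the group, 95% counting interval 0.102% to 3.06%, edgeR adjusted p = 0.0095). After CD45 RIT it was at least 26.6-fold lower (edgeR adjusted p = 0.00539), and after TBI its log2 fold change was -2.82 ± 0.88 (0.102). H2-DMb2 was thus at or under 1 count in every RIT library, while H2-DMb1 reached 361 counts in CD45 RIT replicate 1. H2-Eb2 had at most 10 counts in any library and was not tested. H2-Ea-ps had at most 2 counts except in CD45 RIT replicate 1, which had 43, and was not tested either.

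The signalling route from interferon-gamma to Ciita did not move with the class II genes after CD45 RIT. The list held 8 genes, among them the receptor chains Ifngr1 and Ifngr2, the kinases Jak1 and Jak2, the transcription factors Irf1 and Irf2, and the feedback inhibitor Socs1. After CD45 RIT 6 of 8 rose, where 14.5% of all genes were called higher. In the same pair all 9 stromal markers rose, with a median log2 fold change of 4.25, and their part in the rise of this list was not tested. Irf1 was 39.6 to 71.2 CPM in untreated, 9.55 to 33.4 in TBI and 4.03 to 14.6 in IgG RIT libraries, and 173 and 428 in the CD45 RIT pair. No library of a treated group overlapped the untreated range for Irf1, the CD45 RIT pair being above it and the other treated libraries below it. Its log2 fold change was 2.49 ± 0.54 after CD45 RIT (edgeR adjusted p = 0.00455), -2.77 ± 0.55 after IgG RIT (0.00705) and -1.27 ± 0.44 after TBI (0.129). Ifngr2 rose after CD45 RIT by 2.14 ± 0.33 on the log2 scale (edgeR adjusted p = 4.76e-04), and the CD45 RIT pair lay above every untreated library.

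After IgG RIT 4 of these 8 genes fell: Ifngr1 by -2.51, Ifngr2 by -1.54, Irf1 by -2.77 and Socs1 by -2.51 on the log2 scale (edgeR adjusted p from 0.00213 to 0.0353), where 10.7% of all genes were called lower. After TBI 1 of 8 fell, Ifngr1 (-1.19 ± 0.29, edgeR adjusted p = 0.0392), where 3.38% of all genes were called lower. Tested directly, 7 of 8 were higher in CD45 RIT than in IgG RIT libraries, where 20.2% of all genes were called higher. Irf1 differed by 5.26 ± 0.65 on the log2 scale in that comparison (edgeR adjusted p = 9.65e-05).

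Against untreated, few factors of the promoter complex were called. The list held 7 genes: Rfx5, Rfxap and Rfxank of the RFX complex that binds the X box, Nfya, Nfyb and Nfyc of NF-Y that binds the Y box, and Creb1, which binds X2. After TBI edgeR called 0 of 7, with 1 at an unadjusted p under 0.05, and after IgG RIT only Nfyc passed, with a rise of 0.93 ± 0.26 on the log2 scale (adjusted p = 0.0291), where 5.75% of all genes were called higher. After CD45 RIT 1 of 7 fell, where 18.6% of all genes were called lower. Creb1 had 858 to 1037 counts in untreated, 442 to 1448 in TBI and 376 to 459 in IgG RIT libraries, and 17 and 15 in the CD45 RIT pair. The pair lay far below all other libraries, at a log2 fold change of -5.05 ± 0.40 (edgeR adjusted p = 5.89e-06). Rfx5 was 12.1 to 26.6 CPM in untreated, 0 to 3.57 in IgG RIT and 28.0 and 63.4 in CD45 RIT libraries. It did not pass against untreated but was 4.84 ± 1.27 higher on the log2 scale in CD45 RIT than in IgG RIT libraries (edgeR adjusted p = 0.0106). In that comparison 4 of 7 were called lower: Creb1 (-4.69 ± 0.39), Nfya (-3.40 ± 1.16), Rfxap (-1.07 ± 0.36) and Nfyc (-0.93 ± 0.32), with edgeR adjusted p up to 0.0365. Over all genes 17.5% were called lower there.

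**Figure D4:**
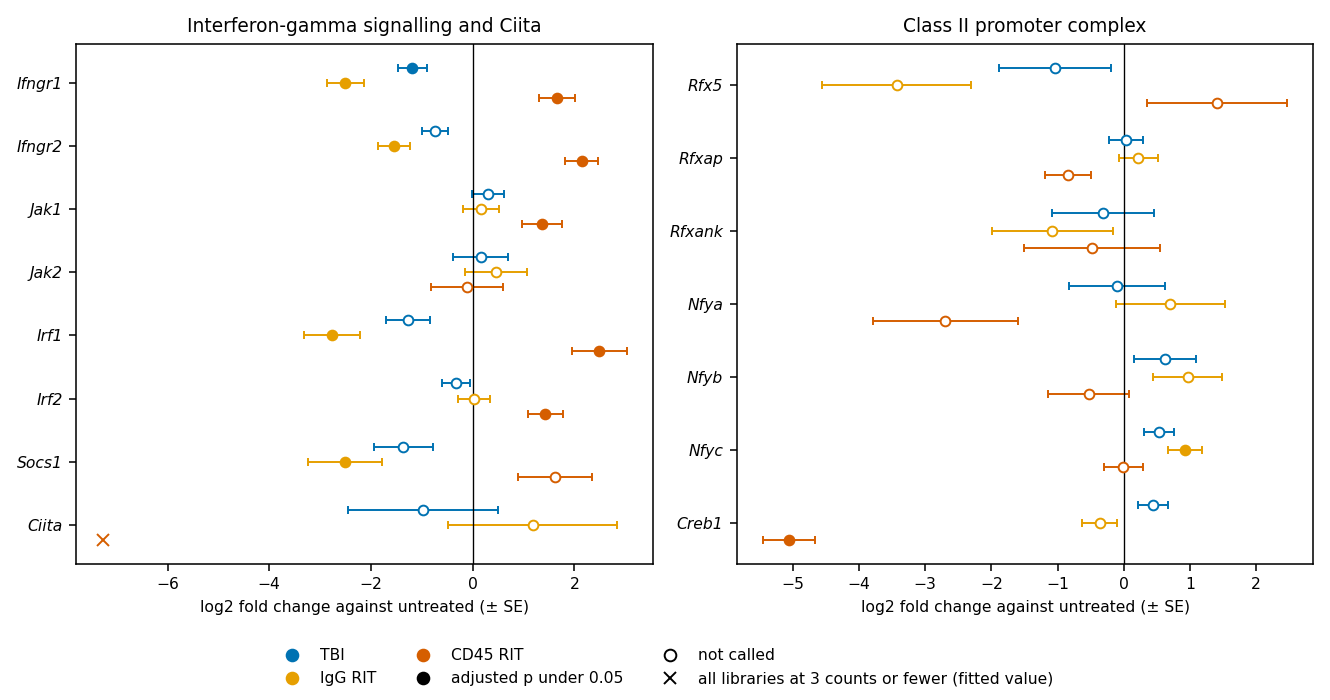
Log2 fold change against untreated with bars of ± 1 SE for 7 genes of the interferon-gamma route with Ciita (left) and the promoter complex (right), coloured by treatment; filled circles passed an adjusted p of 0.05. After CD45 RIT (orange) 5 of these 7 are filled on the right of 0, Creb1 is filled at -5.05, and the cross for Ciita is a fitted value at 0 counts.

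The endosomal enzymes that prepare class II for peptide were fixed as a list of 9: the cathepsins Ctss, Ctsl, Ctsb, Ctsd, Ctsh and Ctsz, the protease Lgmn, the reductase Ifi30 and Sppl2a, which clears the last membrane fragment of the invariant chain. After TBI 1 of 9 fell, Ctsh (log2 fold change -2.39 ± 0.41, edgeR adjusted p = 0.00715), against 3.38% of all genes. After IgG RIT 2 rose (Ctsb by 2.22 ± 0.41 and Ctsd by 1.04 ± 0.22) and 2 fell (Ctsh, at -2.77 ± 0.51, and Ctsz, at -1.10 ± 0.22), against 5.75% of all genes higher and 10.7% lower. After CD45 RIT 5 rose, against 14.5% of all genes, led by Lgmn (3.30 ± 0.45, edgeR adjusted p = 2.3e-04), Ctsl (2.61 ± 0.36, adjusted p = 2.31e-04) and Ctsb (1.91 ± 0.44, adjusted p = 0.00651). Ctss, the cathepsin that cuts the invariant chain in B cells and dendritic cells, was 16.1 to 28.9 CPM in untreated and 7.50 and 0 CPM in CD45 RIT replicates 1 and 2, at -2.62 ± 1.53 (edgeR adjusted p = 0.198). Most of these enzymes also work in lysosomes of other cells.

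Surface class II is removed by the ubiquitin ligases March1 and March8, which CD83 opposes. Cd83 rose after CD45 RIT. It had 32 to 142 counts in untreated and 0 to 33 in TBI libraries, 0, 86 and 0 in IgG RIT libraries, and 3921 and 2718 in the CD45 RIT pair. Both CD45 RIT libraries lay far above all others, 77.1-fold above untreated (log2 fold change 6.27 ± 1.65, edgeR adjusted p = 0.0124). March1 fell after CD45 RIT, from 49 to 79 counts in untreated libraries to 0 in each of the pair (edgeR adjusted p = 0.0434), and 10, 0, 0, 4 and 0 in TBI replicates (0.117). March8 was not called after TBI, IgG RIT or CD45 RIT (edgeR adjusted p = 0.388, 0.0988 and 0.51), at log2 fold changes of 1.95, 3.10 and 1.12. All its TBI (175 to 573 CPM) and IgG RIT (543 to 744 CPM) libraries nevertheless lay above untreated (42.2 to 101 CPM). The CD45 RIT pair was split, with 5262 counts in one library and 1 in the other. Over all genes 14.5% were called higher after CD45 RIT and 18.6% lower.

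Of the 5 genes around CD74 as a receptor (the ligands Mif and Ddt and the co-receptors Cd44, Cxcr2 and Cxcr4), edgeR called 0 after TBI, with 1 at an unadjusted p under 0.05. Mif and Cxcr2 fell after IgG RIT and after CD45 RIT, where 10.7% and 18.6% of all genes were called lower. Over all genes 4.31% were called after TBI. For Mif the log2 fold change was -1.26 ± 0.33 (edgeR adjusted p = 0.0232) and -3.01 ± 0.42 (2.87e-04). Among the costimulatory and coinhibitory ligands, which act beside class II at the T cell contact, 5 of 6 could be tested. Cd274, the gene of PD-L1, had 125 to 402 counts in untreated and 30 to 99 in TBI libraries, 0 in all 3 IgG RIT libraries and 0 and 1 in the CD45 RIT pair, and was lower after both (edgeR adjusted p = 0.00165 and 7.04e-04). Cd86 was lower after CD45 RIT, with no count in either library of the pair against 31 to 76 in untreated libraries (edgeR adjusted p = 0.0256). These ligands thus gave 1 of 5 called lower after IgG RIT and 2 of 5 after CD45 RIT, against the same 10.7% and 18.6% of all genes.

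The markers of cells that carry class II changed between groups as well. In bulk samples, fewer cells of a type and less RNA per cell cannot be told apart. The summed level of the 7 class II genes was 176 to 297 CPM of total counts in untreated, 23.5 to 101 in TBI, 14.4 to 41.7 in IgG RIT and 28.7 to 45.8 in CD45 RIT libraries. The 9 dendritic cell markers summed to 392 to 574 in untreated, 21.4 to 107 in TBI, 35.9 to 88.7 in IgG RIT and 33.2 to 38.6 in CD45 RIT libraries, so that every treated library lay below every untreated one. Of these 9, 5 to 9 had counts in untreated, 3 to 6 in TBI, 5 in IgG RIT and 3 in CD45 RIT libraries, and Itgax was at 0 in both CD45 RIT libraries. Most of the untreated sum was Irf8 and Flt3, with means of 223 and 97.3 CPM. Every treated group overlapped the untreated range of Zbtb46 (19.5 to 78.4 CPM). Of 8 tested, 2, 2 and 4 were called lower after TBI, IgG RIT and CD45 RIT, where 3.38%, 10.7% and 18.6% of all genes were. The 8 pan-haematopoietic markers summed to 1912 to 2390, 244 to 1270, 279 to 425 and 57.6 to 128 in the same order, again without overlap with untreated, with 8 of 8 detected in the first 3 groups and 6 or 7 in the CD45 RIT pair.

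B lineage markers followed another order. Their 8 genes summed to 472 to 1436 in untreated and 115 to 1670 in TBI libraries, the lowest being TBI replicate 6, and to 86.8 to 292 in IgG RIT and 301 to 376 in CD45 RIT libraries. In the CD45 RIT pair most of the sum was Ebf1, a gene also known from marrow stroma, with 5374 and 7809 counts, while Pax5, Ms4a1 and Cd22 were at 0 and 4 or 5 of 8 had counts, against 7 or 8 in the other groups. The 9 monocyte and macrophage markers summed to 158 to 172 in untreated, 16.9 to 57.6 in TBI, 18.2 to 43.9 in IgG RIT and 92.6 to 143 in CD45 RIT libraries, and Adgre1 was at 0 in all 5 RIT libraries. Of 8 tested, 3 macrophage markers were higher after CD45 RIT by edgeR (Cd68, C1qa and C1qb) and 2 lower (Adgre1 and Csf1r). Over all genes 14.5% were called higher there and 18.6% lower. C1qa had 258 counts in 1 CD45 RIT library, 0 in the other and 0 in all untreated libraries. Cd68 had 331 to 593 counts in untreated libraries and 288 and 1495 in the CD45 RIT pair, and Csf1r 1154 to 1935 and 43 and 60. The 9 stromal markers summed to 2993 to 7713 in untreated and 32292 to 50973 in CD45 RIT libraries, and to 880 to 2131 in TBI and 308 to 1082 in IgG RIT libraries. The 12 endothelial markers summed to 127 to 150 in untreated, 31.01 to 104 in TBI, 17.9 to 28.6 in IgG RIT and 6.90 to 194 in CD45 RIT libraries. Erythroid markers moved the other way: their 8 genes summed to 7602 to 14318 in untreated, 24085 to 172901 in TBI, 131002 to 138699 in IgG RIT and 47406 to 190712 in CD45 RIT libraries, and 3, 7 and 6 of 8 rose after TBI, IgG RIT and CD45 RIT. Over all genes 4.31% were called in either direction after TBI. The share called higher was 5.75% after IgG RIT and 14.5% after CD45 RIT. The 8 neutrophil markers summed to 9713 to 12142 in untreated, 79.3 to 1140 in TBI, 553 to 744 in IgG RIT and 5.23 to 14.5 in CD45 RIT libraries. Most of the untreated sum was Mpo, with a mean of 7518 CPM. Of the 8, 3, 3 and 4 were called lower after TBI, IgG RIT and CD45 RIT, where 3.38%, 10.7% and 18.6% of all genes were. Fold changes were positive for 3, 5 and 1 of the 8 in the same order, with a median of 1.51 on the log2 scale after IgG RIT. The part of these cell types in the class II values was not tested. TBI replicate 6 was low in the B lineage, dendritic, macrophage and pan-haematopoietic sums and in the class II sum, and its erythroid sum of 172901 was above the 24085 to 42665 of the other TBI libraries. Without it 1 of the 7 class II genes was called after TBI, as with it: H2-DMa was at -3.17 on the log2 scale after TBI (edgeR adjusted p = 0.00128).

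**Figure D5:**
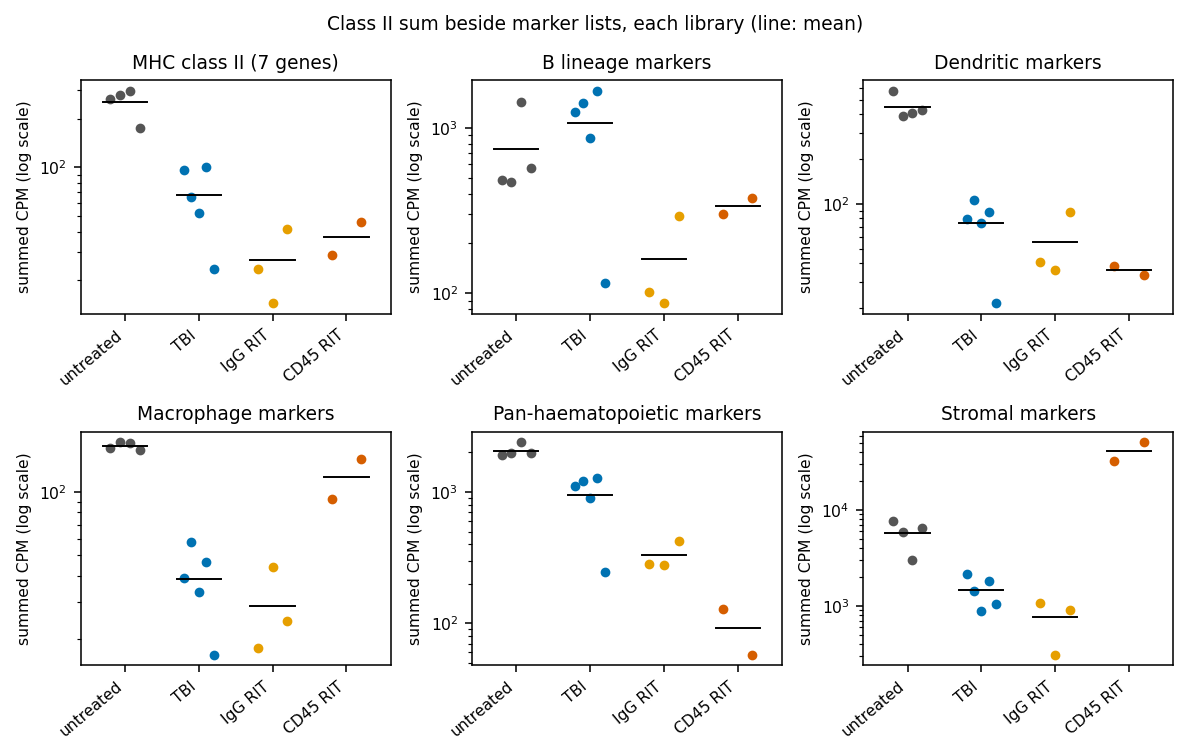
Summed level of the 7 class II genes and of 5 marker lists in each library, in CPM of total counts on log axes that differ between panels; lines are group means. The class II, dendritic and pan-haematopoietic sums are highest in untreated libraries, and the stromal sum is highest in the 2 CD45 RIT libraries.

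The class II genes did not vary as a block across the 14 libraries. Pearson correlations of log2 CPM between pairs ran from -0.13 for H2-DMb1 with Ciita to 0.82 for H2-Aa with H2-Ab1, and Cd74 with H2-Eb1 was at -0.04. Among 8063 well expressed genes (average log2 CPM 3 or higher), the most like the mean of the 7 were Lta4h (r = 0.939), Cwc27 (0.925) and Cd37 (0.912). Those most like H2-DMa were Plac8 (0.975), Tyrobp (0.957) and Ramp1 (0.956), and those most like Cd74 were Abhd17b (0.964), Ly6d (0.961) and Laptm5 (0.945). H2-Aa was most like Mcpt8 (0.935), H2-Ab1 most like Crip1 (0.951), H2-Eb1 most like Ccdc71 (0.942), H2-DMb1 most like Zfp523 (0.947) and Ciita most like Kat7 (0.810). All are descriptions over the same 14 libraries, whose group differences and depth the genes share.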

How the data were processed

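The authors deposited whole-number counts per gene, with gene names, coordinates and lengths, and no normalization of the counts is seen in their values. Reads came from full-length cDNA amplified with a SMART-Seq kit and tagmented, per the labels' protocols, without molecular identifiers. Per the submitters' processing notes, STAR 2.7.7a, FastQC 0.11.9 and edgeR 3.36.0 were used and the build is hg38, a human one. The table holds mouse genes, however, and 54587 of its 55335 identifiers are in GENCODE M21 (GRCm38), all 54587 with the same coordinates, so GRCm38 is given here. The counting tool, strand setting and treatment of shared reads are not given in the sources used here. For 13 symbols held as dates, names were restored by identifier.

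Here, genes were kept by filterByExpr (minimum count 10, minimum total count 15), libraries were scaled by TMM, and the 14 libraries were fitted together in 1 quasi-likelihood model on the 4 groups in edgeR 4.0.16 (R 4.3.3), with Benjamini-Hochberg adjustment over 21509 genes in each comparison and a call at an adjusted p under 0.05. TMM and RLE factors leave different medians over all genes, as given under the dependence on processing. The CPM of single genes are on TMM-scaled sizes and list sums on total counts. Groups with all libraries at or under 3 counts are given as a bound against that floor or, with 1 to 3 counts in all, as a ratio with its 95% counting interval. The deposited gene lengths were used for levels per kilobase. The genes, lists and rules were chosen with earlier results of these data known. Named are the 7 genes in every comparison, the other class II genes, from each list the called genes with the largest change, up to 3 per comparison, and marker genes beside a result. Further list genes named with values (Ctss, Ebf1, March8, the fourth interferon route gene after IgG RIT) were chosen after their values were seen. Similar genes were ranked by Pearson correlation of log2 CPM (prior count 2). Fits were tested on simulated counts. Alternatives were RLE factors, no scaling, no filter, only the 2 groups compared, the replicate number as a block, summed H2-DMb1 and H2-DMb2 counts, DESeq2 1.42.0, and each library left out. No TBI replicate 2 was among the 14 libraries of the count table. Values of some genes on the lists are not reported here.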

Additional observations from a re-analysis of the deposited data

How the results depend on the processing

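H2-DMa was called lower than untreated in every fit that left out 1 library, at log2 fold changes of -3.60 to -3.17 after TBI, -4.38 to -4.03 after IgG RIT and -5.84 to -4.17 after CD45 RIT. Over 587 combinations of a class II gene, a comparison and an alternative, 531 kept direction and side of the threshold, 33 gained a call, 9 lost one and 14 reversed. Class II genes called, with 1, 2, 2, 0, 1 and 0 as reported for TBI, IgG RIT and CD45 RIT against untreated, CD45 RIT against IgG RIT, CD45 RIT against TBI and IgG RIT against TBI, were 2, 4, 4, 2, 2 and 1 by DESeq2. Without scaling CD45 RIT gave 4 against untreated and 2 against TBI, and a fit of only the 2 groups gave 3 for TBI. With 1 library left out they ranged over 1 to 1, 1 to 3, 2 to 4, 0 to 3, 1 to 3 and 0 to 0. All genes called, 926, 3536, 7116, 8108, 8308 and 52 in that order, ranged over 422 to 826, 1775 to 2564, 5840 to 11346, 6359 to 12085, 6981 to 12029 and 2 to 2025. A fit of only 2 groups called 3251, 6662 and 3995 against untreated, 2217 for CD45 RIT against IgG RIT and 850 for IgG RIT against TBI. DESeq2 called 2485 for TBI, 5942 for IgG RIT and 2048 between them, and no scaling gave 203 there. The causes were not tested.

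Whether replicate numbers pair the samples is not given. Deviations of same-numbered libraries correlated weakly (-0.09 to 0.14). Among untreated libraries, the same-numbered one was closest to TBI replicates 3 and 4, IgG RIT replicates 1 and 2 and CD45 RIT replicate 2. It was not the closest to TBI replicate 1, IgG RIT replicate 3 or CD45 RIT replicate 1. Between treatments such a match was seen only for replicate 1 of CD45 RIT against IgG RIT. With the number as a block, 0, 1 and 1 class II genes were called against untreated (H2-DMa after TBI at -3.27, edgeR adjusted p = 0.0825) and 0 for CD45 RIT against TBI. The block called 38, 2063 and 4062 genes against untreated, 5098 for CD45 RIT against IgG RIT and 3756 against TBI. In IgG RIT against TBI it moved Cd74 to 0.0071 and H2-Eb1 to -0.66, and no scaling moved H2-Eb1 to -0.075. Leaving out 1 library reversed Cd74 (-0.63 to 0.25) and H2-Eb1 (-1.22 to 0.96) there, H2-DMa (-1.78 to 0.080), H2-DMb1 (-7.73 to 4.16), H2-Ab1 (-0.50 to 1.37), H2-Eb1 (-3.22 to 4.05) and H2-Ob (-9.20 to 1.69) in CD45 RIT against IgG RIT, H2-DMb1 (-8.64 to 3.358) and H2-Eb1 (-2.73 to 3.80) in CD45 RIT against TBI, and H2-Eb1 (-4.03 to 2.42) in CD45 RIT against untreated.

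The median of all genes against untreated was -0.16, -0.42 and -0.37 with TMM, -0.04, -0.21 and -0.13 with RLE and -0.28, -0.94 and -1.08 without scaling. The share of calls that were higher after IgG RIT was 35% with TMM, 46.7% with RLE and 14.5% without scaling, and after CD45 RIT 43.8%, 52.8% and 22.7%. Ciita was at or under 3 counts in 6 of 14 libraries, H2-Eb2 and H2-Ea-ps were too low to test, and every CD45 RIT value rests on 2 libraries.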
